A study of Mus musculus with 4 samples.

Results

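The regions described here are the highest-scoring narrow peaks called in serum-starved mouse fibroblasts after chromatin immunoprecipitation for pRb. They were chosen by the deposited score and the width, as the peaks on the 19 autosomes of the arrested list with a score of 400 or more and a width below 1000 bp. The rule took 5322 of 657089 arrested autosomal peaks under 1000 bp (0.810%), out of 809030 peaks in the 2 deposited lists together. The score chose them, so their scores, and the tag numbers read from those scores below, are given as a description with no test. The other 651767 arrested autosomal peaks of that width range are called lower-scoring peaks.

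The cells were passage 4 mouse embryonic fibroblasts of strain C57BL/6, taken at E13.5 of gestation, and all 4 samples of the series used here carry the label KO. Arrest was by 0.1% serum over 72 hours, and the asynchronously proliferating cells were grown in 10% serum. Chromatin was fixed with ethylene glycol bissuccinimidylsuccinate and formaldehyde, and each condition had 1 library recovered with antibodies to pRb and 1 input. Labels name 5 antibodies without saying whether they were pooled, and leave the deleted gene unnamed. If that gene was the one for pRb the cells would lack the protein, so the peaks are treated as calls and not as bound sites.

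pRb is the product of the retinoblastoma tumour suppressor gene. It binds E2F transcription factors and holds cell cycle genes silent in resting cells, and phosphorylation by cyclin-dependent kinases releases it as cells enter the cycle. The series title names a further subject, the silencing of endogenous retroelements in somatic cells. A ChIP-seq peak is an interval with more sequenced tags than a background model predicts, and the score ranks how far the tags exceed it. The question open to these data is whether the peaks with the highest scores in starved cells lie in particular places, or where peaks of the proliferating library were also called. With 1 library per condition no test across samples could be run, and all intervals below are 95% intervals for counting error only.

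In short form, the high-scoring peaks were narrow and scattered. Their median width was 156 bp, and 4736 of them (89.0%) were below 200 bp, against 62.3% of lower-scoring peaks. Width was part of the rule, and the score also asks more tags of wide peaks. When peaks were taken by tag number in place of the score, 78.1% were below 200 bp. The high-scoring peaks lay on every autosome, at 7.20 to 10.0 per 1000 called peaks. They had 28.0 other arrested peaks within 50 kb on average, where lower-scoring peaks of the same width had 27.7. Only 87 (1.63%, Wilson interval 1.33 to 2.01) shared a base with a proliferating peak, where lower-scoring peaks of the same width gave 1.59%.

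The deposited scores could be read back as tag numbers, which gives the depth behind each peak. Scores of narrow peaks fell on a ladder of repeated values: 740 members had a score of 407.1, 638 had 419.89 and 510 had 432.78. These values equal 10 times the negative log10 of the Poisson probability of more than 45, 46 and 47 tags, when 2.47 tags are expected by background in a window of 290 bp. For peaks wider than 290 bp the same formula held once the expected number was scaled by the width. With that window 81.6% of 20000 scores of peaks from 320 to below 1000 bp, the first of the list, were matched within 0.011, and windows of 289 and 291 bp matched 0.055% and 0.035%. No label states this formula. If the authors' program counted one tag more in its definition, every tag number below would be higher by 1.

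By this reading 4776 members (89.7%) were scored against the genome-wide background of 8.52 tags per kb. Another 474 matched a higher whole-number rate of 9 to 15 tags per kb, and 242 of these matched 9. Steps of 1000 bp matched 77.3% of the autosomal scores off the genome-wide ladder, and steps 30 bp longer, tried as a comparison, matched 0.992%. No tag number was derived for 72 members. A higher background rate was read for 8.91% of members and 13.9% of lower-scoring peaks of the same width, and the rule acted on this directly, because a higher background lowers the score.

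The 5250 members with a tag number held a median of 49 tags, with quartiles of 46 and 53, and ranged from 45 to 182. The 72 members without one include both peaks with the highest score, so 182 need not be the most tags of any member. Lower-scoring peaks with a tag number held a median of 18, with quartiles of 15 and 23. For a peak below 290 bp on the genome-wide background, the limit of 400 lay between 44 tags (score 394.4) and 45 tags (score 407.1). The exact Poisson interval of 45 tags runs from 32.8 to 60.2, so the peaks just inside and just outside the limit differed by less than counting error. Of the 4621 such narrow members, 2717 (58.8%) sat at 45 to 49 tags. The set therefore crowded against its own limit: 1283 members had a score of at least 500, 88 of at least 700 and 15 of at least 1000.

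The limits of the rule fell among similar peaks. The lowest members were a 386 bp peak on chromosome 17 from 72307960 with a score of 400.2 and 49 tags, and 342 bp peaks with a score of 400.28 and 47 tags on chromosome 3 (from 47631880) and chromosome 6 (from 14316858). Just below the limit came a 223 bp peak on chromosome 17 from 14410613, with a score of 399.58 and no derived tag number. The next were an 823 bp peak on chromosome 12 from 66426070 (398.94, 65 tags) and a 147 bp peak on chromosome 15 from 84054623 (398.41, 54 tags, on a background of 15 tags per kb). Both of these held more tags than the lowest members. By width the last peaks inside were 905, 891 and 869 bp wide, and the first outside were 1047, 1101 and 1126 bp wide. Only 7 autosomal peaks passed the score limit at 1000 bp or more.

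The share of peaks that belonged to the set differed with width. The score asks more tags of wide peaks, so their low share was in part fixed by the rule. Among peaks below 150 bp, 1375 were members, or 9.87 per 1000 (interval 9.36 to 10.4). Among peaks of 150 to below 200 bp, 3361 were members, or 12.4 per 1000 (11.98 to 12.8). The share fell to 4.74 per 1000 at 200 to below 300 bp, with 413 members, and to 0.831 per 1000 (0.693 to 0.997) at 300 to below 500 bp, with 116. It was 2.87 per 1000 (2.22 to 3.72) at 500 to below 1000 bp, with 57 members. The widths of 300 bp and more thus made up 3.25% of members and 24.4% of lower-scoring peaks.

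**Figure D1:**
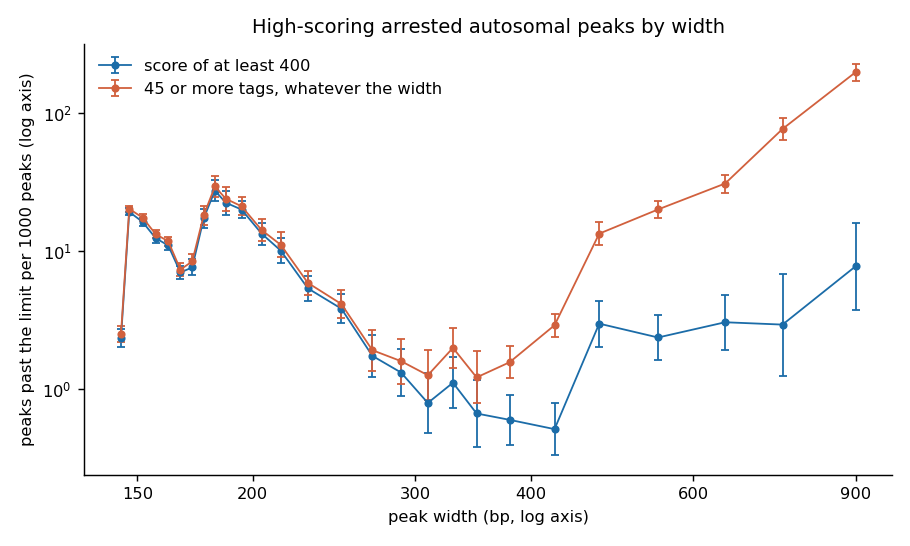
Members per 1000 arrested autosomal peaks against peak width, both on log axes; points are width bins, bars are 95% Wilson intervals, blue is the score limit of 400 and orange is a limit of 45 tags whatever the width, among peaks with a tag number. The blue points drop from 19.3 at 145 to 149 bp to 7.03 at 165 to 169 bp, return to 27.5 at 180 to 184 bp and stay below 8 beyond 220 bp, while the orange points climb to 198.6 at 800 to below 1000 bp.

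Within the narrow range the share rose and fell more than once. At exactly 144 bp, the narrowest width in the list, 183 of 77621 peaks were members, or 2.36 per 1000 (2.04 to 2.72). One base wider, at 145 bp, 285 of 12370 were members, or 23.0 per 1000 (20.5 to 25.8). The minimum width therefore held 11.9% of lower-scoring peaks but 3.44% of members. Peaks of 144 bp had a median of 17 tags and peaks of 145 bp a median of 23. From there the share fell to 7.03 per 1000 at 165 to 169 bp, where the median was 18 tags. It returned to 27.5 (23.0 to 32.8) at 180 to 184 bp, where the median was 20, and then fell to 0.515 (0.334 to 0.796) at 400 to 449 bp. The shares read from 45 tags followed the same course up to about 300 bp.

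Wide peaks needed more tags to enter, and the width pattern depended on that. A peak of up to 290 bp reached 400 with 45 tags on the genome-wide background, a 500 bp peak needed 54 and a 900 bp peak needed 68. When peaks were taken by 45 tags whatever the width, a choice made after the data were seen, 6343 of 631387 peaks with a tag number passed. All 5250 members with a tag number were among them, together with 1093 peaks below the score limit, whose median width was 525 bp. Peaks of 500 to below 1000 bp then held 631 of 17805, or 35.4 per 1000 (32.8 to 38.3), the highest share of the 5 width classes in place of the second lowest. Peaks of 150 to below 200 bp stood at 13.2 per 1000 and peaks of 300 to below 500 bp, still the lowest, at 2.64. Within that class the share by tags was 2.92 per 1000 (2.41 to 3.53) at 400 to below 450 bp and 13.4 (11.1 to 16.2) at 450 to below 500 bp. Below that class, peaks of 260 to below 280 bp stood at 1.75 per 1000 by score and 1.92 by tags, and peaks of 280 to below 300 bp at 1.32 and 1.60. Peaks of 260 to below 450 bp were thus scarce under both measures, and wider ones only by score.

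Tag numbers, where derived, were also set against the called width. Members below 150 bp had a median of 49 tags, or 32.9 per 100 bp of called width, and members of 150 to below 200 bp had 30.3 per 100 bp. At 500 to below 1000 bp the median was 63 tags but 10.4 per 100 bp. Lower-scoring peaks of the same classes had 13.2, 11.9 and 3.73 tags per 100 bp. The formula gives peaks below 290 bp a background for the whole window, and where their tags lay within it was not analysed here, so these values do not show how closely the tags were packed.

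**Figure D2:**
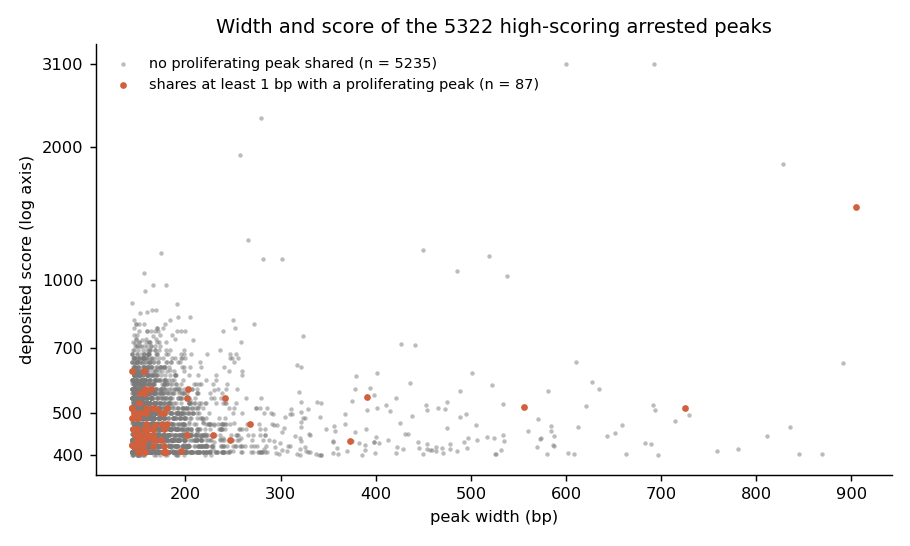
Deposited score (log axis) against width in bp for each of the 5322 members; orange points are the 87 that share at least 1 bp with a proliferating peak and grey points are the rest. Most points lie below 200 bp and below a score of 700, and 9 of the 10 highest scores belong to peaks of 200 bp or wider.

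Wide peaks were frequent at the very top of the set. Of the 10 highest members, 9 were 200 bp or wider and 5 were 500 bp or wider, and of the 50 highest, 19 were 200 bp or wider. The highest scores of 3100, at 692 bp on chromosome 6 (from 103598689) and 600 bp on chromosome 17 (from 4626075), gave no tag number. Both peaks had exactly this value, and no label states whether it is a ceiling of the score. The next highest peak, 279 bp on chromosome 1 from 12634752, held 165 tags (exact Poisson interval 141 to 192). A 257 bp peak on chromosome 2 from 125973522 held 142 (120 to 167). The member with most tags of those that could be read was an 828 bp peak on chromosome 11 from 69401927, with 182 (157 to 210) and a lower score of 1838.2. These tag numbers follow from the scores that ranked the peaks and are given as a description.

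Each width class had its own leading peaks. Below 150 bp the highest were a 144 bp peak on chromosome 5 from 130983587, with a score of 884.7 and 79 tags, and a 146 bp peak on chromosome 11 from 21045380, with 809.74 and 74 tags. At 150 to below 200 bp they were a 174 bp peak on chromosome 18 from 79419144 (1149.18, 96 tags) and a 157 bp peak on chromosome 4 from 74075244 (1038.58, 89 tags). At 300 to below 500 bp they were a 450 bp peak on chromosome 6 from 132413467 (1170.86, 110 tags) and a 302 bp peak on chromosome 9 from 19379754 (1116.78, 95 tags). The remaining 3 of the 10 highest were a 905 bp peak on chromosome 12 from 98299463 (1462.49, no tag number), a 266 bp peak on chromosome 6 from 10136288 (1229.53, 101 tags) and a 519 bp peak on chromosome 2 from 60240510 (1134.95). That last one held 114 tags on a background read as 9 per kb.

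Members were spread over all autosomes. Pooled, they made up 8.10 of each 1000 peaks and 2.20 per Mb of the 2415 Mb spanned by calls. Chromosome 7 had the lowest share, with 269 members or 7.20 per 1000 (interval 6.40 to 8.11), followed by chromosome 17 with 178 or 7.26 (6.27 to 8.40). Chromosome 18 had the highest, with 248 members or 10.0 per 1000 (8.86 to 11.3), and chromosome 15 came next with 239 or 8.71 (7.68 to 9.88). Chromosome 18 was the single autosome whose interval did not include the pooled share. With 19 intervals at 95% some misses can arise by counting alone, and whether this was one of them was not tested.

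Chromosome 18 also came first when the limit was moved. It held 34.3 peaks per 1000 at a score of at least 300, with chromosome 19 next at 33.2, and 2.43 per 1000 at a score of at least 500, with chromosome 6 next at 2.38. Among peaks under 200 bp it held 14.4 members per 1000, with chromosome 13 next at 12.7. By 45 tags it held 12.3 per 1000, with chromosome 13 next at 10.97. The median score over all peaks under 1000 bp was 97.45 on chromosome 18, as on each other autosome. This is one of the repeated values of the ladder, so medians can be equal where the scores differ. These limits share most of their peaks and are not independent, and the highest share exceeded the lowest by 1.39 times with chromosome 18 and by 1.21 times without it.

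**Figure D3:**
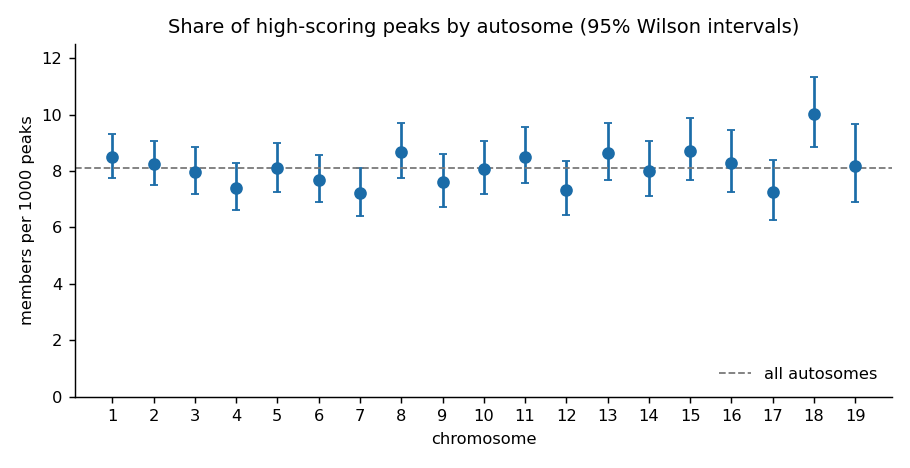
Members per 1000 arrested peaks under 1000 bp on each autosome; points are shares, bars are 95% Wilson intervals and the dashed line is the share over all autosomes, 8.10. Chromosome 18, at 10.0, is the one whose bar does not cross the line.

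The share varied little with position along the chromosome. With each autosome cut into 10 segments of equal length, the share ran from 7.45 per 1000 (interval 6.83 to 8.13) in the ninth to 8.98 (8.30 to 9.71) in the seventh. The first segment, next to the centromere in the mouse, had 7.71 and the last had 7.99, both with intervals that included the pooled share. The seventh was the one segment whose interval lay wholly above it. In windows of 1 Mb the members numbered 2.20 on average, with a median of 2, and 304 of 2416 windows had none. The variance of the counts was 1.08 times their mean, where the same ratio for all peaks under 1000 bp was 4.66. Member counts thus varied over windows by little more than their mean. These ratios rest on counts of unlike size, since windows held a median of 276 peaks in all, and they are not compared further.

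A few windows still held many members. The windows from 69 to 70 Mb on chromosome 1 and from 98 to 99 Mb on chromosome 14 held 11 each, among 296 and 321 peaks. A further window of chromosome 14, from 94 to 95 Mb, had 10 among 317. On chromosome 5 the windows from 48 to 49 Mb and from 129 to 130 Mb held 8 each, as did one window on each of chromosomes 9 and 11. In blocks of 10 Mb with at least 500 peaks, the highest share was on chromosome 9 from 120 to 130 Mb, with 15 members of 1076 peaks, or 13.9 per 1000 (8.47 to 22.9). Chromosome 14 from 90 to 100 Mb, which holds the latter windows, had 39 of 2881. Chromosome 16 from 60 to 70 Mb held 38, or 13.7 (9.97 to 18.7). At the other end, chromosome 12 from 20 to 30 Mb held 5, or 2.77 (1.18 to 6.46), and chromosome 4 from 130 to 140 Mb held 7, or 2.91 (1.41 to 6.00). Over 252 such blocks the interval lay above the pooled share in 15 and below it in 8. With 252 intervals at 95% some misses arise by counting alone, and whether there were more than that was not tested.

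**Figure D4:**
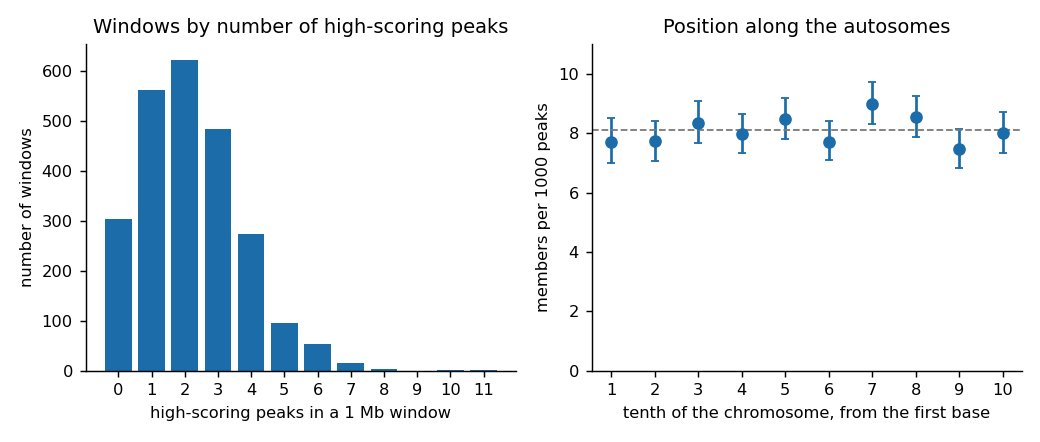
Left, the number of 1 Mb autosomal windows by how many members they hold; right, members per 1000 peaks by segment of the chromosome (10 of equal length) with 95% Wilson intervals and the pooled share as a dashed line. Windows with 2 members are the commonest (622), only 7 windows hold 8 or more, and the segments lie between 7.45 and 8.98.

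Members seldom lay next to each other. The median gap from a member to the nearest other member on either side was 150273 bp. Lower-scoring peaks of the same width lay a median of 152640 bp from the nearest member. Another member within 10 kb was found for 255 members (4.79%, interval 4.25 to 5.40), against 4.47% of all arrested autosomal peaks under 1000 bp and 4.53% of lower-scoring peaks of the same width. Within 1 kb the count was 26 members (0.489%, interval 0.334 to 0.715), against 0.445%. Within 100 kb it was 1955 (36.7%, interval 35.4 to 38.0), against 36.5%. At each of these distances the share of lower-scoring peaks lay inside the interval of the members. With the limit lowered to a score of 300, where 20376 peaks qualified, 17.5% (interval 16.98 to 18.02) had another within 10 kb, against 16.01% of peaks below that limit and of the same width. That interval did not include the compared value. It treats peaks that are each other's neighbours as independent, so it may be too narrow, and by how much was not tested.

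Joined at gaps of up to 10 kb, the members formed 5067 single peaks, 126 pairs and 1 group of 3. The group of 3 lay on chromosome 14 and spanned 8873 bp from 82143141 to 82152013. Its peaks were 173, 151 and 158 bp wide and held 51, 47 and 54 tags, so none of them stood out in height from the rest of the set. The first pairs by position lay on chromosome 1 and spanned 2363 bp from 56404854, 6193 bp from 64955874, 3218 bp from 69332845 and 2890 bp from 82302989. Of the 7 tag numbers read in these pairs, the lowest was 45 and the highest 53. The pair from 69332845 lay in one of the windows with most members.

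The surroundings of the members were as crowded with calls as those of other peaks. Members had a mean of 28.0 other arrested peaks within 50 kb of their centre (SD over peaks 5.38), with a median of 28 and quartiles of 24 and 31. Weighted to the members' widths, lower-scoring peaks had a mean of 27.7, the same median and the same quartiles. The ratio of the means was 1.01. Other arrested peaks covered 6.39% of the bases within 50 kb of members and 6.34% around lower-scoring ones. The nearest peak lay a median of 1177 bp away, against 1188 bp. The mean score of the peaks on either side had a median of 111 for members and 109 for lower-scoring peaks of the same width. Peaks of one library share its reads, so these values are a description of it.

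The class of 300 to below 500 bp departed most from this. It was picked out after the values of all classes were seen, and the difference was not tested. The 116 members of this class had a mean of 30.1 other peaks within 50 kb (SD over peaks 6.996). Lower-scoring peaks of that width had 27.6 (SD 5.75). In the other 4 classes the members' means lay between 27.8 and 28.3 and those of lower-scoring peaks between 27.6 and 27.8. The single member with most neighbours belonged to that class: a 398 bp peak on chromosome 13 from 13001338, with a score of 548.59, had 66 other peaks within 50 kb. It was read as 75 tags on a background of 15 tags per kb. The next were 2 members 30044 bp apart on chromosome 3, from 105991852 and 105961079, with 58 and 55. The fewest neighbours were 8, around an 891 bp peak on chromosome 5 from 37051804, and 10 around members on chromosome 4 from 55461580 and chromosome 13 from 68316565.

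**Figure D5:**
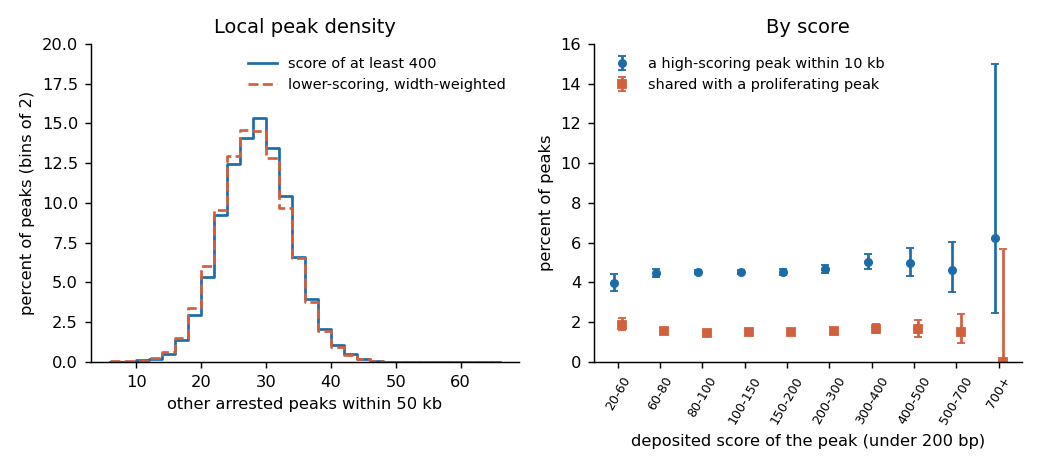
Left, the percentage of peaks by number of other arrested peaks within 50 kb, for members (solid) and for lower-scoring peaks weighted to the members' widths (dashed); right, for arrested peaks under 200 bp by score, the percentage with a member within 10 kb and the percentage sharing a base with a proliferating peak, with 95% Wilson intervals. The 2 outlines nearly coincide, and the shares on the right stay between 3.99% and 6.25% and between 0 and 1.88% over all scores.

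The proliferating list was not used by the rule and gives a second library to set beside it. Of all arrested autosomal peaks under 1000 bp, 1.82% shared at least 1 bp with a proliferating peak, and the 1.63% of members lay near this background. By width, 23 of 1375 members below 150 bp were shared (1.67%, against 1.48% of lower-scoring ones) and 52 of 3361 at 150 to below 200 bp (1.55%, against 1.52%). At 500 to below 1000 bp 3 of 57 were shared (5.26%, interval 1.81 to 14.4), against 3.83%. In each class the value of lower-scoring peaks lay inside the interval of the members. Among peaks under 200 bp the share was 1.64% at scores of 400 to below 500 and 1.504% at 500 to below 700. None of the 64 with a score of 700 or more was shared, with an upper bound of 5.66%. Proliferating peaks within 50 kb numbered 4.43 on average around members and 4.39 around lower-scoring peaks of the same width.

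The proliferating peaks that coincided with members were ordinary ones of their list. Their median score was 23.9, with quartiles of 22.0 and 29.1, where all autosomal proliferating peaks had a median of 24.4 and those shared with lower-scoring peaks of the same width had 24.5. Scores of the 2 lists were not shown to have one scale, so each is set only against its own list. Only 1 of the 87 partners had a score of at least 50: the proliferating peak from 60433903 to 60434313 on chromosome 5, with 69.37, which lay inside a 556 bp member with a score of 514.56. The next highest partners scored 49.28 on chromosome 2, sharing 25 bp with a 157 bp member from 52849724, and 43.9 on chromosome 13. The latter shared 128 bp with a 144 bp member from 108747312. A partner of 43.49 on chromosome 14 covered the whole of a 144 bp member from 26635113 with 61 tags, and one of 41.35 on chromosome 15 covered a 159 bp member from 62570222 with 48 tags. The shared stretch had a median of 77 bp. Among the 10 highest members only the 905 bp peak on chromosome 12 was shared, over 526 bp.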

How the data were processed

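The authors deposited 1 peak list per immunoprecipitate, with chromosome, start, end, name and a score for each peak. The build mm9 and the tools Bowtie2, bedtools, HOMER and MACS2 come from the submitters' processing notes, which give no version, setting or role. The score is the authors' own value on a scale that no label states.

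Coordinates are mm9 as deposited, written 1-based. No mm9 genome or annotation was used here, so no sequence, gene or repeat is given. Members were found by score and width. The members, and the question of width, spread and density, were chosen with earlier results of these data known. Overlap meant at least 1 bp. Values for lower-scoring peaks of the same width weight 5 width classes by the members' numbers. Tag numbers were derived by matching each score to 10 times the negative log10 of a Poisson tail, within 0.011 for the genome-wide background and 0.006 for whole-number rates up to 15 tags per kb. Tested on 2 simulated score lists of 657089 peaks, this code recovered 100% of tag numbers at the genome-wide background and at least 99.6% at local ones. Those lists were made with the same formula, over a narrower range of tags than the real peaks. They test the code and not the reading of the deposited scores. Peaks named are the 10 highest, the 2 highest of each width class, 3 on either side of each limit, the 5 largest groups, the 5 windows with most members, the 5 shared with the highest proliferating scores, and the 3 with most and fewest neighbours. The 10 Mb blocks and the further autosomes named were chosen after their values were seen. Alternatives moved the limits of score, width, distance and overlap. Python 3.11.15, numpy 2.4.6, pandas 2.3.3, SciPy 1.17.1 and matplotlib 3.10.9 were used.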

Additional observations from a re-analysis of the deposited data

Results flagged for a closer look

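The X chromosome lies outside the autosomal rule and was used in none of the comparisons above. It is listed as data outside the main measurement. It held 349 arrested peaks with a score of at least 400 and a width below 1000 bp among 41766 peaks under 1000 bp. That is 8.36 per 1000 (Wilson interval 7.53 to 9.28), an interval that includes the 8.10 per 1000 of the autosomes. The highest score among them was 1181.19. The Y chromosome had 1 such peak among 71, with a score of 419.89.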

How the results depend on the processing

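Leaving out replicates could not be done with single libraries. No paired analysis was possible because no group had a second sample. Moving the score limit changed the number of members to 20376 (at least 300) and 1283 (at least 500). The share below 200 bp became 86.3% and 87.9% at these limits, and 78.1% for peaks taken by 45 tags. The highest autosome exceeded the lowest by 1.39 times in the main setting, by 1.22 times at a score of at least 300 and by 1.21 times without chromosome 18. It did so by 1.57 times when members were counted per Mb of the span of called peaks, and by 1.54 times at a score of at least 500. The share with another member within 10 kb, divided by that of lower-scoring peaks of the same width, was 1.06. It was 1.09 at a score of at least 300 (17.5%, interval 16.98 to 18.02, against 16.01%). At a score of at least 500 it was 0.830, from 12 of 1283 members (0.935%, interval 0.536 to 1.63, which includes the 1.13% of lower-scoring peaks). The cause was not tested. The 25 further values, the 1.09, 1.54 and 1.57 among them, lay inside the 95% counting interval of the main one or, for numbers and the density ratio, changed by less than 1.5 times. The density ratio was 1.01, and ran from 1.01 to 1.02. The ratio of shares overlapping a proliferating peak was 1.03 and ran from 1.03 to 1.12. The tag-number rule and leaving out chromosome 18 were chosen after seeing the data. The order of the width classes depended on the score: by tags, peaks of 500 to below 1000 bp had the highest share in place of the second lowest.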
